A study of Mus musculus with 3 samples.

Results

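The genes described here encode the cubilin and megalin uptake system of the visceral endoderm and a lipoprotein that is handled by related receptors. They are cubilin (Cubn), amnionless (Amn), megalin (Lrp2), the adaptor Dab2 and apolipoprotein E (Apoe), 5 of the 17997 genes listed in any of 3 libraries. They were taken by Entrez gene number, and the group was selected on levels already known from these libraries, so the values below describe the genes and test nothing. Total RNA was sequenced from 46C mouse embryonic stem cells of strain 129, a line with a fluorescent reporter at the Sox1 locus, grown with serum and LIF on gelatin. The control library came from cells given an empty vector (PB) and collected at passage 2 (empty vector P2, called the control below). The other libraries came from cells given Lef1 in the same kind of vector (PB-Lef1), collected at passage 2 (Lef1 P2) and at passage 5 (Lef1 P5). Lef1 encodes a transcription factor through which beta-catenin acts on Wnt target genes. The sources used here give neither the promoter that drove Lef1 nor whether a culture was a pool or a clone. Each group has n = 1 library, so no spread between cultures is known, no p-value is given, and intervals in parentheses are 95% counting intervals.

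Visceral endoderm is the outer epithelium of the early mouse conceptus, which takes up maternal proteins, lipids and vitamins before the placenta works. Cubilin is a very large extracellular receptor with no membrane-spanning segment of its own. It reaches and stays on the cell surface only when bound to amnionless, a small membrane protein, and the pair is called cubam. Megalin is a giant member of the LDL receptor family that works beside cubam on the same membranes, also in the kidney. Dab2 binds the tails of such receptors and links them to clathrin and the AP-2 complex, and in the mouse embryo it is a marker of primitive endoderm and its descendants. Apolipoprotein E is carried on lipoproteins and is a ligand of LDL receptor family members.

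The promoter windows of the 3 genes with the widest swings are shown here because those genes moved together at passage 2 and apart at passage 5. They are RefSeq windows of build GRCm38.p6, matched by gene number for all 5 genes, each with 250 bases before and 50 bases after an annotated start. RefSeq gives 1 window each for Cubn, Amn and Lrp2, 2 for Dab2 and 3 for Apoe. Capitals mark the letters GATAAG or AGATAA (bound by GATA factors), CTTTGAT or CTTTGAA (bound by TCF/LEF factors) and GTTAAT (a core of HNF1 sites), searched on both strands.
Cubn, chr2:13491827-13492126, minus strand: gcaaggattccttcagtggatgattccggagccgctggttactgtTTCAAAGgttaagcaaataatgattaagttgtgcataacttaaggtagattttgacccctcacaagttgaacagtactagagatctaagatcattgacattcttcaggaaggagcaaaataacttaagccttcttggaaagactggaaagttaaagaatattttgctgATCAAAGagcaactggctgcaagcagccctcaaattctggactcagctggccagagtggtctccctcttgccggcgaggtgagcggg
Amn, chr12:111270846-111271145, plus strand: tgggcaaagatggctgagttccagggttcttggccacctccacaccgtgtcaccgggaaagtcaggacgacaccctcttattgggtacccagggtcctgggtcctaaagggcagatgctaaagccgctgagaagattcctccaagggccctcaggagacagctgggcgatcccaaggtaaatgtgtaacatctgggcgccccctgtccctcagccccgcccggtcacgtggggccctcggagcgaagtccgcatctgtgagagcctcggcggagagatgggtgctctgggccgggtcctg
Dab2, first window, chr15:6299539-6299838, plus strand: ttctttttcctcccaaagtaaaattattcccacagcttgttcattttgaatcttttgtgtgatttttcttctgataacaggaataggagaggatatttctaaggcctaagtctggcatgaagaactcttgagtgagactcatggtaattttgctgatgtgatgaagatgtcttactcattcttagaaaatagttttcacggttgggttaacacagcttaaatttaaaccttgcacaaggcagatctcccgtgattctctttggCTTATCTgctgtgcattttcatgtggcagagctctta
Dab2, second window, chr15:6386498-6386797, plus strand: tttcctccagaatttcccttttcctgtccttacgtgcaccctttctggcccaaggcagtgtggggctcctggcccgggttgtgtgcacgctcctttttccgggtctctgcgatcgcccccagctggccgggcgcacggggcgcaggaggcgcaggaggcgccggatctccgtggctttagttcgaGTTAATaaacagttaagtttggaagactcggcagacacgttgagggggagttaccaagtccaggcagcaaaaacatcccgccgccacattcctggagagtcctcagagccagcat

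The Cubn window holds both TCF/LEF words on its reverse strand, read here as TTCAAAG starting 205 bases and ATCAAAG starting 37 bases before the annotated start. Of 32851 such windows in the mouse table, 3.73% hold CTTTGAT, 5.14% hold CTTTGAA and 8.65% hold either. The share that holds both was not counted. The first Dab2 window holds GATAAG and AGATAA as a single overlapping stretch (CTTATCT on the printed strand), starting 14 bases after its start. Of all windows 15.02% hold either word, and the share with both was again not counted. GTTAAT occurs in the second Dab2 window and in the third Apoe window, against 7.10% of all windows. The Amn and Lrp2 windows hold none of these words, but hold the GC box letters GGGCGG, as do 35.7% of all windows. A match is a run of letters and no measured binding site, and the libraries do not tell which start site was used.

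The libraries held 9225401, 9170554 and 9380813 expected counts (control first, then passage 2 and passage 5 with Lef1, the order used for all lists of 3 values). Levels are in FPKM, reads corrected for transcript length and for library size. Calls of higher or lower need a log2 ratio of FPKM + 1 at or past 1 in either direction (2-fold), and 3 FPKM from 20 expected reads in the library with more. Lef1 itself was at 1.49, 135 and 214 FPKM, which follows the labels.

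The control held Cubn (Entrez number 65969) at 2.68 FPKM (2.38 to 3.01), Lef1 P2 held it at 32.96 FPKM (31.9 to 34.1), and Lef1 P5 at 2.53 FPKM (2.24 to 2.85), from 280, 3416 and 269 expected reads. It was high in Lef1 P2 alone, and the intervals of the other libraries overlap. Amn (Entrez number 93835) stood at 2.33 FPKM (1.62 to 3.24), 16.5 FPKM (14.5 to 18.6) and 5.62 FPKM (4.50 to 6.94) in the same order, from 35, 245 and 86 expected reads. All 3 of its intervals are apart, with Lef1 P5 between the others. At passage 5 the amnionless interval lay above that of the control, unlike the interval of cubilin.

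Dab2 (Entrez number 13132) stood at 2.99 FPKM (2.47 to 3.58) in the control and went to 22.1 FPKM (20.6 to 23.6) in Lef1 P2, with 5.26 FPKM (4.57 to 6.03) in Lef1 P5, from 118, 821 and 206 expected reads. As for Amn, Lef1 P5 lay between the others with no overlap. The Dab2 row pools 4 RefSeq transcripts, and the length the authors divided by differed between libraries (4332, 4112 and 4217 bases). The other genes have 1 transcript and 1 length each.

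Lrp2 (Entrez number 14725) had 7.83 FPKM (7.38 to 8.30) in the control, then 11.01 FPKM (10.5 to 11.6) with Lef1 at passage 2 and 5.23 FPKM (4.86 to 5.62) at passage 5, from 1116, 1558 and 758 expected reads. It was the only one of the 5 whose Lef1 P5 interval lies below that of the control. Apoe (Entrez number 11816) stood at 471 FPKM (458 to 484), 862 FPKM (844 to 879) and 490.2 FPKM (477 to 503), from 5252, 9512 and 5574 expected reads. Its control and Lef1 P5 intervals overlap. Apoe was already abundant in the control cells, where it ranked 141st of all genes by FPKM, and it ranked 92nd in Lef1 P2 and 138th in Lef1 P5. The expected counts of all 5 genes were whole numbers in every library.

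**Figure D1:**
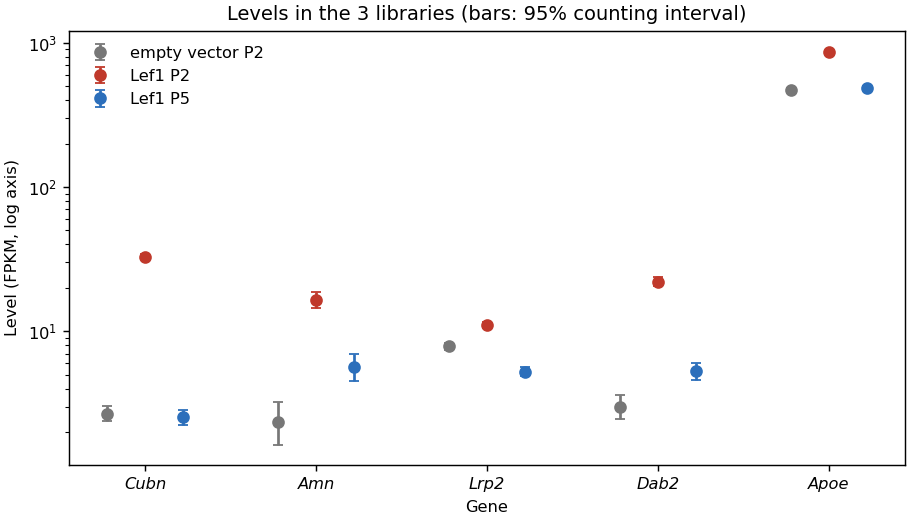
Level of each gene (x axis) in FPKM on a log axis (y axis) in empty vector P2 (grey), Lef1 P2 (red) and Lef1 P5 (blue), 1 library each, with bars for the 95% counting interval (hidden by the point where short). Lef1 P2 is the highest library for all 5 genes, and Lef1 P5 falls on the control for Cubn, above it for Amn and Dab2 and below it for Lrp2.

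Ordered by FPKM, which is per length, the genes changed places. In the control the order was Apoe, Lrp2, Dab2, Cubn and Amn, and the intervals of Dab2, Cubn and Amn overlap. In Lef1 P2 the order was Apoe, Cubn, Dab2, Amn and Lrp2, with no overlap between neighbours. In Lef1 P5 it was Apoe, Amn, Dab2, Lrp2 and Cubn, where Amn, Dab2 and Lrp2 overlap and Cubn lies below them.

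Lef1 P2 against the control is matched for passage and asks what differs with Lef1 given. Cubn, Dab2 and Amn were called higher, 3 of 5 genes, and 0 were lower. In the background of 10651 genes that reached the minimum level, 6.49% were called higher and 1.82% lower, and the group was selected with this contrast known, so nothing is read from the difference. The median log2 ratio was 2.39 for the 5 genes and 0.09 for the 10651. Cubn was 12.3-fold higher (10.9 to 13.9), Dab2 7.38-fold (6.08 to 9.03) and Amn 7.06-fold (4.94 to 10.4). These were the 19th, 46th and 57th highest log2 ratios of the 10651. Apoe was 1.83-fold (1.77 to 1.89) and Lrp2 1.41-fold (1.30 to 1.52) the control level, and neither was called.

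The median log2 ratio of all 12894 measured genes (1 FPKM or more in any library) was 0.11 in this comparison, and scaling by the median of ratios or by TMM shifted it by -0.14. Relative to that median the log2 ratios were 3.09 for Cubn, 2.42 for Dab2, 2.28 for Amn, 0.76 for Apoe and 0.33 for Lrp2. Of all called genes, 78.1% were higher as deposited, against 62.6% with median-of-ratios and 62.5% with TMM scaling. All 5 genes stayed above the control under both scalings.

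Lef1 P5 against the control differs in Lef1 and in passage at once, and these cannot be told apart. None of the 5 genes was called, against a background of 1.40% higher and 1.28% lower of 10121 genes. The median log2 ratio was 0.06 for the 5 genes and -0.02 for the 10121. Cubn was under 3 FPKM in both libraries and so did not reach the minimum level. Its fold was 0.944 (0.796 to 1.12). Amn was 2.41-fold the control level (1.61 to 3.68) with a log2 ratio of 0.99, just under the threshold, and it was called higher with a pseudocount of 0.1 and with either other scaling. Dab2 was 1.76-fold (1.40 to 2.23), Apoe 1.04-fold (1.002 to 1.08) and Lrp2 0.668-fold (0.608 to 0.733).

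Lef1 P5 against Lef1 P2 compares cells given Lef1 at different passages, and the Lef1 level also differed, by 1.58-fold (1.52 to 1.65). Cubn, Dab2 and Amn were called lower, 3 of 5, and 0 higher, against a background of 6.86% lower and 1.88% higher of 10593 genes. The median log2 ratio was -1.40 for the 5 genes and -0.14 for the 10593. Cubn kept 0.0768 of its Lef1 P2 level (0.0675 to 0.0869), a 13.03-fold difference, and had the lowest log2 ratio of all 10593 genes (-3.27). The next lowest were Npcd (-2.80), listed at 0 in Lef1 P5, and Pth1r (-2.78), the parathyroid hormone receptor gene. Cubn was also the lowest with a pseudocount of 5 and with both other scalings, and the 10th lowest with a pseudocount of 0.1. Dab2 was 4.20-fold lower, Amn 2.93-fold, Lrp2 2.11-fold and Apoe 1.76-fold. The Lrp2 ratio was -0.95 on the log2(FPKM + 1) scale and was not called, but it reached -1.06 with a pseudocount of 0.1. The median of all measured genes was -0.17 here and moved by 0.17 with median-of-ratios and 0.16 with TMM scaling, and the share of calls that were higher moved from 21.5% to 44.8% and 43.4%. Relative to that median Cubn was at -3.10, Dab2 at -1.71, Amn at -1.23, Lrp2 at -0.78 and Apoe at -0.64. This comparison shares the Lef1 P2 library with the first.

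Ratios between genes within a library do not depend on how libraries were scaled. Cubn stood to Amn, its membrane partner, as 1.15 (0.808 to 1.68) in the control, 2.004 (1.76 to 2.29) in Lef1 P2 and 0.450 (0.352 to 0.581) in Lef1 P5. The control interval includes parity, cubilin was in excess at Lef1 P2, and amnionless was in excess at Lef1 P5. Cubn stood to Lrp2 as 0.342 (0.299 to 0.391), 2.99 (2.82 to 3.18) and 0.484 (0.419 to 0.557). Megalin transcript thus outnumbered cubilin transcript per length in the control and in Lef1 P5 and was the scarcer of the pair in Lef1 P2. Dab2 stood to Amn as 1.28 (0.873 to 1.93), 1.34 (1.16 to 1.55) and 0.936 (0.724 to 1.22). The control interval of that ratio overlaps each of the others, while the Lef1 P2 and Lef1 P5 intervals overlap only between 1.16 and 1.22.

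**Figure D2:**
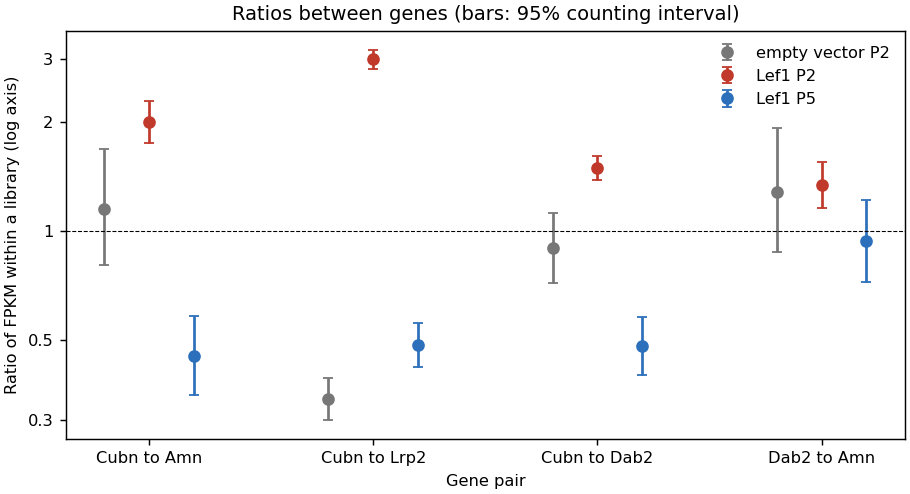
Ratio of the FPKM of the first-named to the second-named gene (y axis, log scale) within each library, with 95% counting intervals as bars and parity as the dashed line. The ratios of Cubn to Amn, Lrp2 and Dab2 are highest in Lef1 P2, and those to Amn and Dab2 are lowest in Lef1 P5 at 0.450 and 0.481, whereas Dab2 to Amn stays between 0.936 and 1.34.

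The levels of endoderm markers were read beside these genes. Counts of called genes in this and the later lists stand beside the shares of all tested genes. Those were 6.49% higher and 1.82% lower for Lef1 P2, and 1.40% and 1.28% for Lef1 P5, over the control. For Lef1 P5 against Lef1 P2 they were 1.88% higher and 6.86% lower. All 6 primitive endoderm markers (Gata4, Gata6, Sox17, Sox7, Pdgfra and Foxq1) were called higher in both Lef1 libraries, with a summed level of 8.91, 180.6 and 65.7 FPKM. Of the 6, 4 were called lower in Lef1 P5 than in Lef1 P2, and 2 with either other scaling. Gata6, an endoderm transcription factor gene, was at 2.24, 46.3 and 20.3 FPKM, and kept 41.01% of its excess over the control at passage 5. The same share was 49.2% for Pdgfra, 25.4% for Sox17 and 21.3% for Gata4, against 23.3% for Amn, 11.9% for Dab2, 4.89% for Apoe, -0.495% for Cubn and -81.8% for Lrp2, whose level in Lef1 P5 was under that of the control. Over all genes, 166 of the 691 called higher in Lef1 P2 (24.0%) were at or under the control level in Lef1 P5, as Cubn was. Apoe and Lrp2 were not called higher in Lef1 P2, so their shares are of an excess short of the threshold. All these shares rest on the same control library. In bulk RNA, fewer cells of a type and less RNA per cell cannot be told apart, and the part of the endoderm markers in the levels of the 5 genes was not tested.

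The name visceral endoderm is only partly borne out by its markers. Of 12 visceral endoderm markers 3 were called higher in Lef1 P2, among them Rhox5 (16.6 to 118 FPKM, control first) and Foxa2 (0.27 to 6.13 FPKM). The secreted-protein genes Afp and Ttr and the anterior visceral endoderm gene Cer1 were listed in no library. The summed level of the list was 26.1, 147 and 57.7 FPKM in the 3 libraries, of which Rhox5 alone gave 16.6, 118 and 46.7 FPKM. Hnf4a, the transcription factor gene of mature visceral endoderm and liver, was at 2.13 FPKM (1.70 to 2.63), 4.55 FPKM (3.91 to 5.27) and 0.59 FPKM (0.378 to 0.878). Like Lrp2 it was highest in Lef1 P2 and lowest in Lef1 P5, and it was called lower there than in Lef1 P2, as were Rhox5 and Foxa2. Over the control, 1 gene of this list (Rhox5) was called higher in Lef1 P5. Of 11 parietal endoderm markers 8 were called higher in Lef1 P2, with sums of 275, 1776 and 595 FPKM. In Lef1 P5 5 were called higher than in the control. Against Lef1 P2, 7 were called lower and 1, the vimentin gene Vim, higher. Vim was at 98.35, 54.1 and 143 FPKM, and its Lef1 P2 level was 0.550 times the control (0.506 to 0.597). As deposited Vim was not called in Lef1 P2 over the control, and with the other scalings it was the 1 gene of the list called lower there. The 5 genes are therefore called by name here, and not taken as signs of a visceral endoderm state.

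Markers of other cells were read in the same way. Krt7 was the single trophoblast marker of 7 called higher in Lef1 P2 (1.68 to 7.01 FPKM, and 0.83 FPKM in Lef1 P5), with list sums of 16.5, 23.4 and 12.6 FPKM. In the neural progenitor list Nes was the 1 gene of 6 called higher in Lef1 P2, though not with the other scalings, and sums were 3.75, 7.18 and 4.74 FPKM. Of 8 macrophage markers none was called in any comparison. Their sums were 29.0 to 34.9 FPKM, nearly all from Cd68, and Ptprc, Adgre1 and Tyrobp were listed in no library. Of 7 fibroblast markers Thy1 was called lower in Lef1 P5 than in the control, though not with median-of-ratios scaling, and sums were 17.2, 10.5 and 7.70 FPKM, with Lum and Postn in no library. Of 5 kidney proximal tubule markers none was called, with sums of 1.42 to 1.94 FPKM. None of the 7 pluripotency markers was called in any comparison, with sums of 2176, 1627 and 2090 FPKM. Pou5f1 alone gave 1135, 704 and 1062 FPKM of these, and was 0.620 times the control in Lef1 P2 (0.604 to 0.638). Tfcp2l1 (1.49 times) and Nanog (1.05 times) lay above the control there, and the list's median log2 ratio was -0.10.

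**Figure D3:**
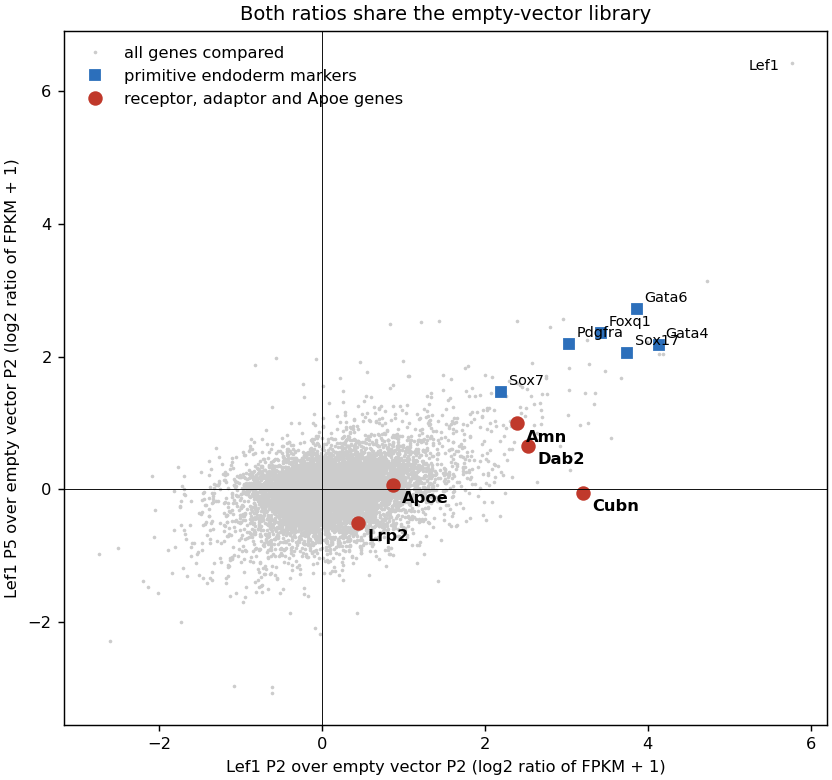
Log2 ratio of FPKM + 1 for Lef1 P2 over empty vector P2 (x axis) and Lef1 P5 over empty vector P2 (y axis) for 10731 genes with at least 3 FPKM and 20 expected reads in any library (grey), with the 5 genes in red and primitive endoderm markers in blue. The 6 markers lie above 1 on both axes, while Cubn lies at 3.21 and -0.06. The axes share the control library, so the cloud's tilt carries no information.

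The genes with the most similar pattern were sought among these 10731 by the distance between their pairs of log2 ratios over 3 libraries. For Cubn the nearest were Fam114a1 (distance 0.377, at 3.14, 33.3 and 4.04 FPKM), Pygl, the liver glycogen phosphorylase gene (0.594, at 1.96, 17.4 and 2.19 FPKM), and Tns4 (0.762). The counts of Tns4 were not whole. For Amn they were Prss35 (0.0540), Lgals9 (0.0686) and Gpat3 (0.0776), with the counts of Prss35 not whole. For Dab2 they were S1pr1 (0.143), Slc44a3 (0.187) and Lrrk1 (0.206). For Lrp2 they were Ccdc68, Zyg11a and Cpt1c, with distances of 0.00931 to 0.0221, and for Apoe they were Asah1, the acid ceramidase gene, Rpn1 and Crebl2, with distances of 0.0124 to 0.0186. The 3 nearest genes of Cubn were farther from it than those of the other genes were from theirs. Cubn had the 19th highest log2 ratio at passage 2, where few genes lie, so the distance alone sets no pattern of its own apart.

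Of 13 other LDL receptor family genes none was called in either comparison with the control. The median log2 ratio of the 12 measured ones was 0.25 for Lef1 P2 and -0.38 for Lef1 P5 over the control, beside 0.11 and -0.02 for all measured genes. For Lef1 P5 over Lef1 P2 it was -0.50, beside -0.17. Lrp1, a broad endocytic receptor gene, was at 14.7, 22.8 and 10.1 FPKM and was called lower in Lef1 P5 than in Lef1 P2 (log2 ratio -1.10), a call that neither other scaling kept. The Wnt co-receptor genes of the family, Lrp5 and Lrp6, were at 19.6, 20.2 and 14.1 FPKM and at 13.02, 14.4 and 9.41 FPKM. Like Lrp2, these 3 were highest in Lef1 P2 and lowest in Lef1 P5, although the control and Lef1 P2 intervals of Lrp5 and Lrp6 overlap. Vldlr, the VLDL receptor gene, was at 0.29 FPKM (0.182 to 0.439), 1.52 FPKM (1.25 to 1.83) and 0.78 FPKM (0.595 to 1.004), under the minimum level for a call. The passage 2 level was 5.24 times the control (3.30 to 8.69). Lrp8, a reelin receptor gene, was at 2.39, 4.44 and 2.16 FPKM, 1.86 times the control at passage 2 (1.52 to 2.27), and was not called.

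Of 10 receptor chaperone and sorting adaptor genes, 2 were called higher in Lef1 P2 and 0 lower, beside 6.49% and 1.82% of all tested genes. Lrpap1, the chaperone that keeps LDL receptor family members from binding ligands during their synthesis, was at 23.4 FPKM (21.6 to 25.3), 139 FPKM (135 to 144) and 68.7 FPKM (65.6 to 71.9). It was 5.95-fold the control level in Lef1 P2 and 2.94-fold in Lef1 P5, where it was the 1 gene of the list still called higher. Its log2 ratio at passage 2 was 2.52, against 0.44 for Lrp2 and at most 0.97 (Vldlr) among the 13 other receptors of the family. The 1 FPKM added before the ratio lowers the value of Vldlr, a gene of low level. Without it the folds were 5.24 (3.30 to 8.69) for Vldlr and 5.95 (5.46 to 6.49) for Lrpap1, and these intervals overlap. Myo6, a motor that moves endocytic vesicles and binds Dab2, was at 3.57 FPKM (3.15 to 4.03), 17.01 FPKM (16.1 to 18.0) and 4.36 FPKM (3.90 to 4.86). In Lef1 P5 it was 1.22 times the control (1.03 to 1.44). Lef1 P5 was called lower than Lef1 P2 for Myo6, Numbl and Lrpap1, and with the other scalings for 1 gene of the list. Dab1, the neuronal relative of Dab2, was at 9.32, 5.14 and 5.73 FPKM and was not called.

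Of 23 genes for the clathrin coat, AP-2 and early endosomes, 1 was called higher in Lef1 P2 and 0 in Lef1 P5, with medians of 0.09 and -0.0044 over the control. The shares of all tested genes were 6.49% and 1.40%, near these counts. With either other scaling 1 gene of this list was also called lower in Lef1 P2, and the median became -0.06, and 1 gene was called higher in Lef1 P5 than in Lef1 P2, where none was called as deposited. The gene called higher in Lef1 P2 over the control was Clcn5, at 2.86, 7.54 and 4.73 FPKM. It encodes an endosomal chloride/proton exchanger needed for protein uptake in the kidney. The clathrin heavy chain gene Cltc was at 96.0, 133 and 110.5 FPKM, and the AP-2 subunit gene Ap2m1 at 87.7, 83.6 and 111.6 FPKM. Members lay on both sides of the median at passage 2. Cltb, a clathrin light chain gene, was at 27.2, 14.3 and 27.8 FPKM. As deposited it was not called, with log2 ratios of -0.88 for Lef1 P2 over the control and 0.91 for Lef1 P5 over Lef1 P2. With the other scalings Cltb was the gene called lower in the former and higher in the latter. Dnm2, the gene of the dynamin that cuts vesicles free, was 1.75 times the control in Lef1 P2 and was not called.

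Of 16 other uptake receptor, cofactor and lysosomal genes, 3 were called higher in Lef1 P2 (median 0.62) and 1 in Lef1 P5 (median -0.14), with 0 lower. The shares of all tested genes called higher were 6.49% and 1.40%. Stra6, the receptor for retinol-binding protein, was at 0.36, 20.6 and 5.34 FPKM. The lysosomal protease genes Ctsl (99.5, 254 and 172 FPKM) and Lgmn (27.4, 60.6 and 25.04 FPKM) were the others in Lef1 P2, where 2 genes of the list were called with either other scaling. Lef1 P5 was called lower than Lef1 P2 for Stra6, Lgmn and the mannose 6-phosphate receptor gene Igf2r, and with the other scalings 2 genes of the list were. The transferrin receptor gene Tfrc was at 63.2, 80.5 and 122.6 FPKM, and was thus highest in Lef1 P5.

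Among 15 genes for ligands of cubilin and megalin, Tcn2 was called higher in Lef1 P2, at 15.3 FPKM (13.6 to 17.2), 42.4 FPKM (39.4 to 45.4) and 16.04 FPKM (14.3 to 18.0) in the 3 libraries. It encodes transcobalamin, the blood carrier of vitamin B12 and a ligand of megalin. Its Lef1 P5 interval overlaps that of the control, as for Cubn. The intestinal vitamin B12 carrier gene Cblif, the ligand for which cubilin is best known, and the albumin gene Alb were listed in no library. Only 5 of the 15 genes reached 1 FPKM. The 1 call in Lef1 P2 stands beside 6.49% of all tested genes.

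Among 15 genes for other apolipoproteins and lipid transfer, 1 was called higher in Lef1 P2, beside 6.49% of all tested genes. It was Apoc1, which lies beside Apoe on chromosome 7 and was at 43.9 FPKM (37.2 to 51.5), 118 FPKM (106 to 130) and 52.1 FPKM (44.8 to 60.2). Apoa1, Apoa2, Apoa4, Apob, Apoc2 and Apoc3 stayed under 1 FPKM in every library. Mttp, needed to load lipid on apolipoprotein B, was at 1.36, 3.52 and 0.55 FPKM and was called lower in Lef1 P5 than in Lef1 P2, as was Apoc1, and with the other scalings 1 gene of the list was. In Lef1 P5 the lipoprotein lipase gene Lpl was called higher than the control (4.12, 7.31 and 10.8 FPKM) and the cholesterol exporter gene Abcg1 lower (6.66, 3.53 and 2.53 FPKM). The counts of Lpl were not whole.

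**Figure D4:**
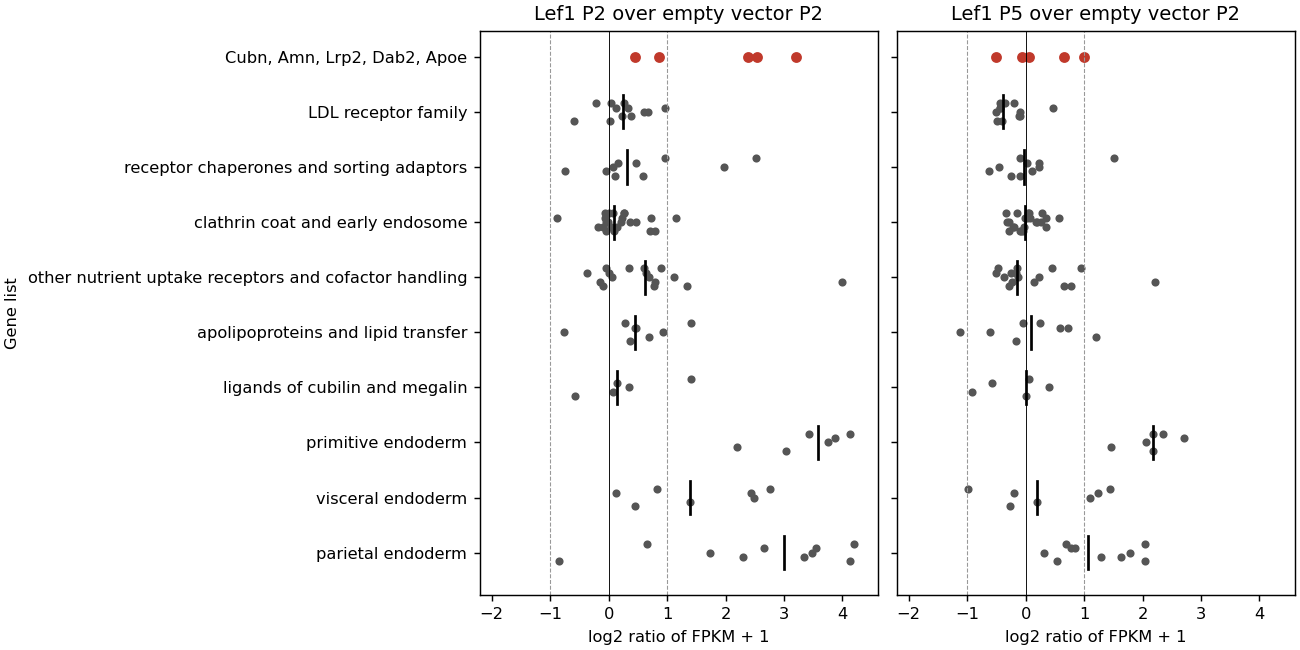
Log2 ratio of FPKM + 1 (x axis) of each measured gene of the gene lists and the endoderm marker lists (rows) for Lef1 P2 (left) and Lef1 P5 (right) over empty vector P2, with the 5 genes in red, list medians as bars and dashed lines at the 2-fold threshold. In the left panel 3 red points lie past the threshold and the medians of the LDL receptor family and clathrin lists are 0.25 and 0.09, and in the right panel none of the red points passes it.

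Genes next to the 5 on the chromosome were read to see whether they moved too. The nearest protein-coding genes of Cubn are Rsu1 and Trdmt1. Rsu1 was at 44.6, 16.7 and 45.5 FPKM, called lower in Lef1 P2 than in the control, the opposite of Cubn, and Trdmt1 was at 1.89, 2.45 and 2.06 FPKM. Traf3 and Cdc42bpb beside Amn and Bbs5 beside Lrp2 were called in no comparison. Dhrs9 beside Lrp2 and Ptger4 and C9 beside Dab2 stayed under 3 FPKM, as did Trdmt1, so no call was possible for them. Ptger4 was at 0.40, 1.51 and 0.52 FPKM from 12, 45 and 16 expected reads, highest in Lef1 P2 like Dab2. Beside Apoe, Apoc1 followed the same course, and Tomm40, on the other side, was at 119, 76.4 and 122.8 FPKM and was not called.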

How the data were processed

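Each library has 1 deposited gene table with Entrez gene numbers, RefSeq transcripts and a transcript length, per the file headers. Expected counts (estimated reads per gene, as deposited by the authors) and FPKM (reads scaled by transcript length and library size, computed by the authors) are the values used. The submitters' processing notes name the aligner Bowtie 0.12.2 and build mm8. Which program counted reads, how it treated multi-mapping reads and whether it used strand was not given in the sources used. Genes missing from a table were taken as 0. Symbols came from RefSeq (GRCm38.p6), which matched 17951 of 17997 numbers and served for names, promoter windows and gene order only, since the builds differ.

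Folds are ratios of FPKM. Calls used log2((FPKM + 1)/(FPKM + 1)), which understates changes of low genes, over all genes of a comparison. Level intervals are exact Poisson and ratio intervals exact conditional binomial, at 95%, covering counting error only, since amplified reads are not independent molecules. TMM factors came from edgeR 4.0.16 on rounded expected counts, the rest from Python 3.11.15 with scipy 1.17.1. The calling rule was run on simulated reads with counting error only and with large changes placed in well-covered genes. That run checks the code, and does not cover genes of low level or the spread between cultures. With 1 library per group there is no replicate and no test. Tried as alternatives were a pseudocount of 0.1 or of 5, a minimum of 1 or 10 FPKM or no minimum, median-of-ratios and TMM scaling, 1 common length per gene, thresholds of 1.5-fold and 4-fold, and non-overlapping intervals. The 5 genes and the gene lists were chosen with earlier results of these data known. Genes named are the 5, Lef1, for each list the called genes at either end (up to 2 per side), those behind counts of 5 or fewer, the chromosomal neighbours and the 3 nearest patterns. Other names were chosen after their values were seen. Some genes counted in the lists are not reported here by name.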

Additional observations from a re-analysis of the deposited data

Results flagged for a closer look

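Lrp2 moved in opposite directions at the 2 passages. Its level was 1.41 times the control in Lef1 P2 and 0.668 times the control in Lef1 P5, and neither counting interval includes 1. The difference between the passages was not tested, since each group has 1 library and both ratios share the control. Both values lie within the 2-fold threshold.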

How the results depend on the processing

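No paired analysis was possible because each group has 1 library. No replicate could be left out for the same reason. Of 75 recomputed log2 ratios of the 5 genes, none changed sign, 60 counted as the same, 11 as moved and 4 crossed the threshold. A ratio past the threshold counted as the same while it stayed past it, whatever the shift. Cubn in Lef1 P2 over empty vector P2 went from 3.21 to 2.31 with a pseudocount of 5 and counted as the same. A ratio short of the threshold counted as moved when it shifted by more than the mean reach of its counting interval to either side. The ratios that crossed were Amn in Lef1 P5 over empty vector P2 with a pseudocount of 0.1, median-of-ratios and TMM scaling (1.24, 1.03 and 1.02) and Lrp2 in Lef1 P5 over Lef1 P2 with a pseudocount of 0.1 (-1.06). Of the 5 genes, those called in Lef1 P5 over empty vector P2 went from 0 to 1 under these 3 settings and to 2 (Amn and Dab2) with a 1.5-fold threshold. In Lef1 P5 over Lef1 P2 they went from 3 to 5 with a 1.5-fold and to 1 (Cubn) with a 4-fold threshold. In Lef1 P2 over empty vector P2 their count stayed within 1.5 times the 3 reported under every setting.

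Over all genes, the calls in Lef1 P2 over empty vector P2 went from 885 to 328 with a pseudocount of 5, 478 with a 10 FPKM minimum, 2719 with a 1.5-fold and 115 with a 4-fold threshold. In Lef1 P5 over empty vector P2 they went from 272 to 414 with a pseudocount of 0.1, and to 67, 116, 1038 and 24 under those settings. In Lef1 P5 over Lef1 P2 they went from 926 to 281, 503, 2961 and 47. The level of Amn in empty vector P2 rests on 35 reads, and counting intervals do not cover the spread between cultures, which 1 library per group leaves unknown.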
